A study of Rattus norvegicus with 6 samples.

Results

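The unfolded protein response (UPR) and endoplasmic reticulum (ER) secretory genes analysed here were a named set of 38 genes, chosen by gene symbol and grouped into 6 branches: the UPR sensors, the UPR and CREB3 family transcription factors, the ER chaperones and folding enzymes, the ER-associated degradation genes, the ATF4 target genes and the genes of COPII and early secretory transport. Of these, 37 had a row among the 18923 genes of the expression files, and no row was named Mia3. The cells were primary wild-type chondrocytes of newborn female Sprague-Dawley rats, freed from cartilage with type II collagenase and used at an early passage. The 3 CON samples were kept for 24 h in high-glucose DMEM with fetal bovine serum and antibiotics, and the 3 RA samples were kept for 24 h in this medium with 1 µM retinoic acid, a vitamin A metabolite used here to model cartilage loss. No vehicle is named for CON. The study calls the samples of a group independent, and whether each came from its own animal is not given in the sources used here, so the p-values measure the spread between these samples.

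The ER folds, glycosylates and exports secreted and membrane proteins, and cartilage cells carry a heavy load of them because they secrete large collagens and proteoglycans. When folding falls behind, the sensors IRE1 (Ern1), ATF6 and PERK (Eif2ak3) set off the UPR. IRE1 splices Xbp1 mRNA, ATF6 is cut in the Golgi to release a transcription factor, and PERK phosphorylates eIF2α, which slows translation in general but favours translation of ATF4. ATF6 and XBP1 act on chaperone genes through ER stress response elements, while ATF4 acts on amino acid and redox genes through amino acid response elements. CREB3L1 (OASIS) and CREB3L2 (BBF2H7) are cut in the same way as ATF6, and BBF2H7 is known in cartilage for driving Sec23a and collagen export through COPII vesicles.

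Promoter windows are shown because the UPR factors are known to reach their target genes through short elements near the gene start. Windows ran from 250 bases before to 50 bases after the annotated gene start, in RefSeq's GRCr8 assembly, and 32 of the 38 members had one. Hspa5, which encodes the chaperone BiP, is shown as the textbook UPR target, with its ER stress response element in capitals, at chr3:38452766-38453065 on the plus strand. Chac1, at chr3:126795881-126796180 on the plus strand, is shown with an amino acid response element in capitals. Sec23a, at chr6:82440855-82441154 on the minus strand, and Kdelr3, at chr7:112959382-112959681 on the plus strand, are the COPII and early secretory genes that were called lower in RA, and their capitals mark a UPR element, which lies on the opposite strand in Kdelr3.
Hspa5: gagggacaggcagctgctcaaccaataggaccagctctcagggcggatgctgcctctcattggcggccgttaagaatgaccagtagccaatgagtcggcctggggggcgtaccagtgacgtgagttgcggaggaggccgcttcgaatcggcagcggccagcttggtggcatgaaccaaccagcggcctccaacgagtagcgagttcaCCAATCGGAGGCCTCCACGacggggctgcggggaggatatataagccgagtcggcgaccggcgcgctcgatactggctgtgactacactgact
Chac1: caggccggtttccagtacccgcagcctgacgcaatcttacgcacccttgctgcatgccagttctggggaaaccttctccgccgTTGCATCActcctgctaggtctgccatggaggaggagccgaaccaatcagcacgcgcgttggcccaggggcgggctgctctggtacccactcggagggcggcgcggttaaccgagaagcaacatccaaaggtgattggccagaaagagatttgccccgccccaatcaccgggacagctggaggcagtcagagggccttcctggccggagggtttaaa
Sec23a: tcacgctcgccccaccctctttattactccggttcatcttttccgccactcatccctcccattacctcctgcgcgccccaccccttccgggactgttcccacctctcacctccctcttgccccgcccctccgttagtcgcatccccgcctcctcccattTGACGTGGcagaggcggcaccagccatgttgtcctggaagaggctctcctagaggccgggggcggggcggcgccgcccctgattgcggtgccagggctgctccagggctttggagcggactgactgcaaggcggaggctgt
Kdelr3: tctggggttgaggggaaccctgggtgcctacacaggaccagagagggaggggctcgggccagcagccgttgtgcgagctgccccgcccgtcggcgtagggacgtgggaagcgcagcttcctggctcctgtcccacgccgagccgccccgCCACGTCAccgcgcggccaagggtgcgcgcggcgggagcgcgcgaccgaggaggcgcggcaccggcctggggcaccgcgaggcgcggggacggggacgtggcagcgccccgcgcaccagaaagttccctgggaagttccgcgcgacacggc

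Exact matches were counted on both strands, and a match describes letters in this window and nothing about binding. The ER stress response element (ERSE) is CCAAT, any 9 bases and CCACG. It stood in the windows of 7 of the 32 members (21.9%) and in 22 of all 33365 windows (0.0659%). In gene-sense direction, with the fixed letters in capitals, the sites of the remaining ERSE members were as follows, and Hsp90b1 held 1 on each strand.
Xbp1: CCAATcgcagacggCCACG
Hsp90b1, farther from the start: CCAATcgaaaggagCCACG
Hsp90b1, nearer to the start: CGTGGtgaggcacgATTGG
Calr: CGTGGtcgaccctgATTGG
Canx: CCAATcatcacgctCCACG
Creld2: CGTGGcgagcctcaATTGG
Dnajc3: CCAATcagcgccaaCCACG
The related ERSE-II (ATTGG, 1 base and CCACG) stood in 3 members, Dnajb11, Hyou1 and Herpud1 (9.38%, against 0.051% of all windows). The UPR element TGACGTGG stood in 3 members, Hyou1, Sec23a and Kdelr3 (9.38%, against 0.596%), and in Hyou1 it overlapped an ERSE-II. The amino acid response element TTGCATCA stood in 2 members, Herpud1 and Chac1 (6.25%, against 0.794%). The ERSE and ERSE-II members were chaperones and folding enzymes together with Xbp1 and Herpud1.

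**Figure D1:**
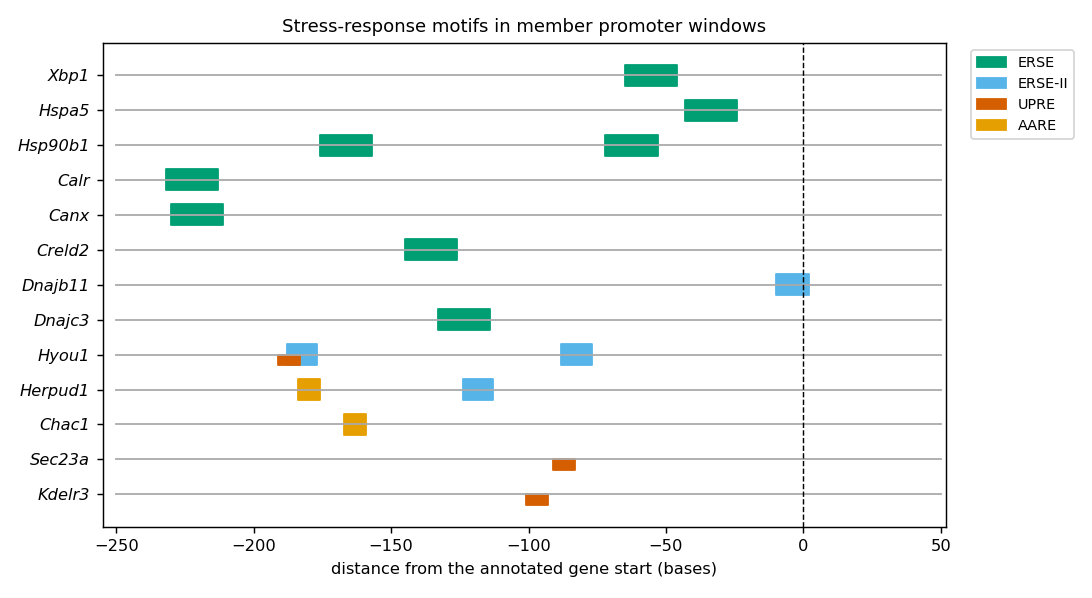
Positions of the 4 motifs in the windows of the 13 members that held any. The x axis gives the distance in bases from the annotated gene start (dashed line), bars stand for motif matches on either strand, and the UPR elements are drawn at less height so that the overlap in Hyou1 can be seen.

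Each library held between 29370025 and 38007486 counted reads. CON 1 stood apart from the other CON samples: the chi-square per gene of its counts was 39.6 against CON 2 and 63.3 against CON 3, while the other pairs of a group lay between 6.53 and 8.25. Values without CON 1 are given where they change a call or the reading of a branch. The chondrocyte label held, with Col2a1 at a mean of 5420.1 FPKM in CON (SD 961, n = 3). FPKM is a read count scaled to gene length and library size. All 9 chondrocyte markers were called lower in RA, beside 4.5% of all genes, with a median log2 fold change of −0.86. Their summed level was 30599 to 41088 CPM in CON and 18877 to 20599 CPM in RA. Leukocyte markers summed to 22.5 to 25.6 CPM in CON and 27.3 to 29.7 CPM in RA, with mean FPKM of at most 0.0152 for Ptprc and Adgre1, while Cd14, at 12.9 FPKM in CON and 15.3 FPKM in RA, and Cd68, at 1.05 and 1.28 FPKM, did not overlap between the groups and were not called. Endothelial markers summed to 8.82 to 12.2 CPM in CON and 9.49 to 10.4 CPM in RA. Muscle markers summed to 10.2 to 12.8 and 14.9 to 16.7 CPM, and osteoblast markers to 2.64 to 3.34 and 5 to 6.58 CPM. Among them Myod1 (muscle) and Ibsp (osteoblast) were called higher, beside 5.31% of all genes. Erythroid markers summed to at most 0.0331 CPM. The part of these shifts in the results below was not tested. In bulk samples, fewer cells of a type and less RNA per cell cannot be told apart, and gene counts show neither Xbp1 splicing nor the phosphorylation of eIF2α.

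The question was whether the UPR and the secretory machinery moved with RA. All 37 members with a row were tested, and 8 were called lower in RA and 0 higher (edgeR's quasi-likelihood test, adjusted p below 0.05 with Benjamini-Hochberg adjustment over all 13438 genes tested). Those 8 of 37 (21.6%) stand beside 9.82% of all genes called in either direction and 4.5% called lower, and the 0 called higher stand beside 5.31%. They were the factors Atf4, Ddit3 and Creb3l2, the ATF4 targets Trib3, Sesn2 and Ppp1r15a, and the transport genes Sec23a and Kdelr3. None reached the fold of a DEG here (log2 fold change beyond 0.58), a class that took 4.96% of all genes (2.29% lower and 2.67% higher). The log2 fold changes ran from −0.45 in Trib3 to 0.031 in Creld2, with a median of −0.17 beside −0.0057 over all genes, and 35 of 37 (94.6%) were below 0 beside 51.1% of all genes. In 20 members (54.1%) every RA sample lay below every CON sample by normalised CPM, beside 15.1% of all genes, and 18 members (48.6%) had an unadjusted p below 0.05, beside 24% of all genes. The members share the same 6 libraries, so these counts are not independent of each other. The shares over all genes were not matched to the members' level, and they include genes with far fewer reads. Without CON 1, 16 members were called lower, beside 7.8% of all genes called lower in that fit. Without CON 2, 5 were called lower, beside 2.29% of all genes, and without RA 1, RA 2 or RA 3, 4 in each fit, beside 2.16%, 2.15% and 2.07%.

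**Figure D2:**
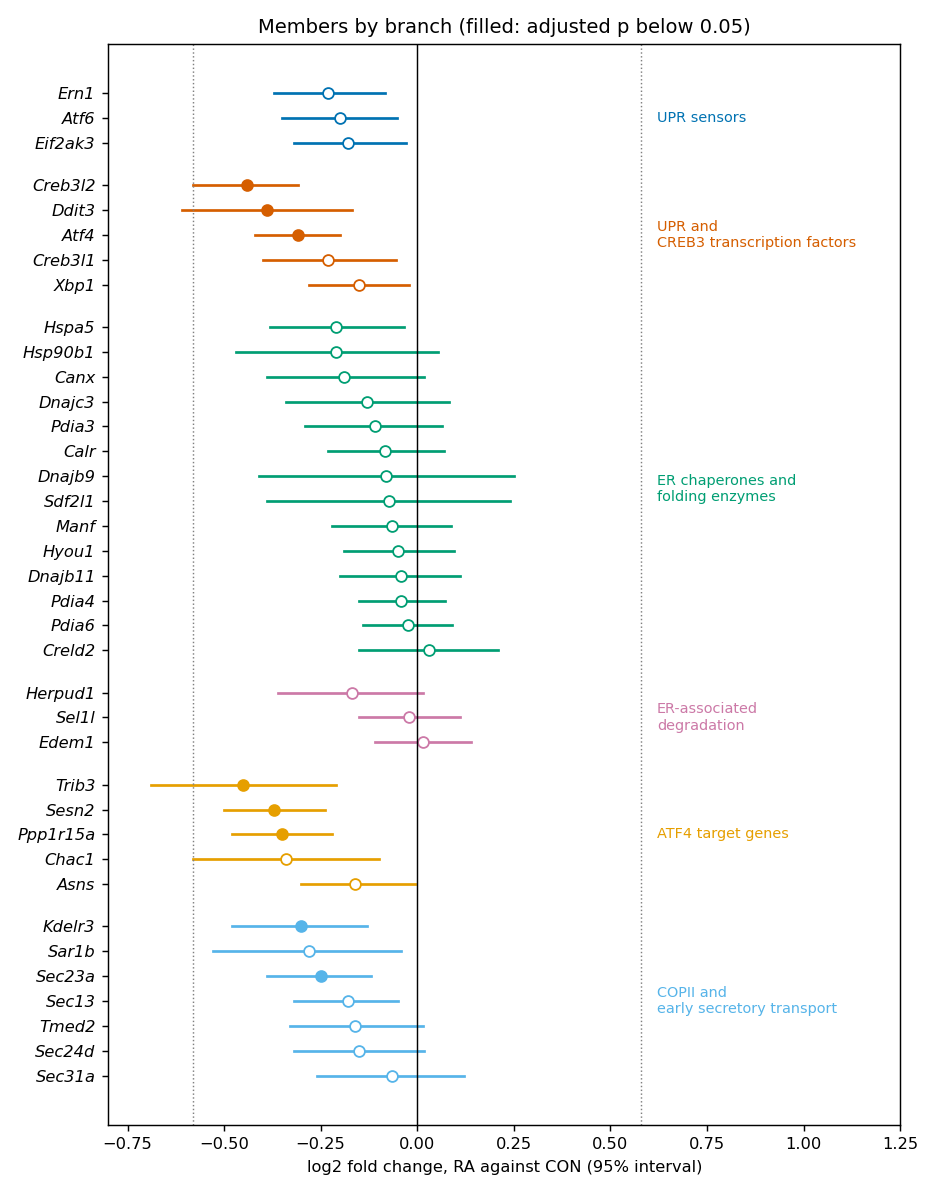
Log2 fold change of RA against CON for the 37 members by branch, with 95% intervals from edgeR. Filled points are the 8 members with adjusted p below 0.05, all left of 0, and dotted lines mark the DEG fold of 0.58 on either side.

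In the transcription factor branch, 3 of 5 members were called lower in RA (4.5% of all genes) and all 5 were lower without overlap between the groups (15.1% of all genes). Atf4, the factor at the end of the PERK arm, stood at 401, 405 and 393 FPKM in CON 1 to 3 and at 325, 331 and 318 FPKM in RA 1 to 3. The RA samples lay together, well below the CON samples. Atf4 fell by 19.4% (log2 fold change −0.31, SE 0.048, edgeR adjusted p = 0.00491). Creb3l2, the CREB3 family factor tied to cartilage secretion, stood at 62.2, 62.7 and 66.3 FPKM in CON and at 46, 48.2 and 47.6 FPKM in RA. It fell by 26.5% (log2 fold change −0.44, SE 0.0601, edgeR adjusted p = 0.00255), the smallest p of the 37 members. Its relative Creb3l1 stood at 82.6, 89.5 and 97.3 FPKM in CON and at 75.5, 80.1 and 76.3 FPKM in RA. The Creb3l1 groups did not overlap, but the spread in CON was wide, and the log2 fold change of −0.23 (95% interval −0.4 to −0.056) had an edgeR adjusted p of 0.107, or 0.00405 without CON 1.

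Ddit3, which encodes the pro-apoptotic factor CHOP, stood at 77.2, 61.9 and 64.7 FPKM in CON and at 52.2, 55.6 and 49.1 FPKM in RA. CON 1 was the highest sample and the RA samples were the lowest. Ddit3 fell by 23.7% (log2 fold change −0.39, SE 0.0945, edgeR adjusted p = 0.0367), and by 0.29 on the log2 scale without CON 1 (adjusted p = 0.0083). The call was lost without CON 3 or any 1 RA sample, with edgeR adjusted p between 0.0509 and 0.165 at log2 fold changes of −0.44 to −0.35. Xbp1, the target of IRE1 splicing, stood at 118, 123 and 120 FPKM in CON and at 109, 112 and 107 FPKM in RA. The samples of each group lay close together, and the difference was small: the log2 fold change was −0.15 (95% interval −0.28 to −0.021, edgeR adjusted p = 0.15, or 0.0368 without CON 1).

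In the ATF4 target branch, 3 of 5 members were called lower (4.5% of all genes), all 5 were lower without overlap (15.1% of all genes) and the median log2 fold change was −0.35. Sesn2, a stress-induced inhibitor of mTORC1, stood at 36.7, 38.1 and 38.3 FPKM in CON and at 29.7, 30 and 28.9 FPKM in RA. Ppp1r15a (GADD34), the subunit that directs a phosphatase to eIF2α, stood at 54.8, 54 and 55.7 FPKM in CON and at 43.2, 44.5 and 42.8 FPKM in RA. Both showed little spread within a group. Sesn2 fell by 22.4% (log2 fold change −0.37, SE 0.0567, edgeR adjusted p = 0.00496) and Ppp1r15a by 21.4% (log2 fold change −0.35, SE 0.0564, edgeR adjusted p = 0.00628). Trib3, a pseudokinase that restrains ATF4, stood at 71.9, 86.1 and 93.8 FPKM in CON and at 58, 65.1 and 63 FPKM in RA. Here CON 1 was the lowest CON sample, in contrast to Ddit3, and still above every RA sample. Trib3 fell by 26.8% (log2 fold change −0.45, SE 0.105, edgeR adjusted p = 0.0302), and by 0.55 on the log2 scale without CON 1. Leaving out any other sample ended the Trib3 call, with edgeR adjusted p between 0.0561 and 0.129 at log2 fold changes of −0.49 to −0.35.

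Chac1, whose product degrades glutathione, stood at 27.6, 31.7 and 35.7 FPKM in CON and at 24.6, 26.8 and 24.3 FPKM in RA. The groups did not overlap, but the lowest CON sample came close to the highest RA sample, and the log2 fold change of −0.34 (95% interval −0.58 to −0.1) had an edgeR adjusted p of 0.0813, or 0.00141 without CON 1. DESeq2 called Chac1 lower with all 6 samples. Asns, asparagine synthetase, stood at 145, 127 and 131 FPKM in CON and at 121, 125 and 120 FPKM in RA. CON 2 and RA 2 were nearly level, and Asns had a log2 fold change of −0.16 (95% interval −0.3 to −0.0065, edgeR adjusted p = 0.191). The Chac1 window printed above held the amino acid response element, and this exact motif stood in no window of the called ATF4 targets.

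**Figure D3:**
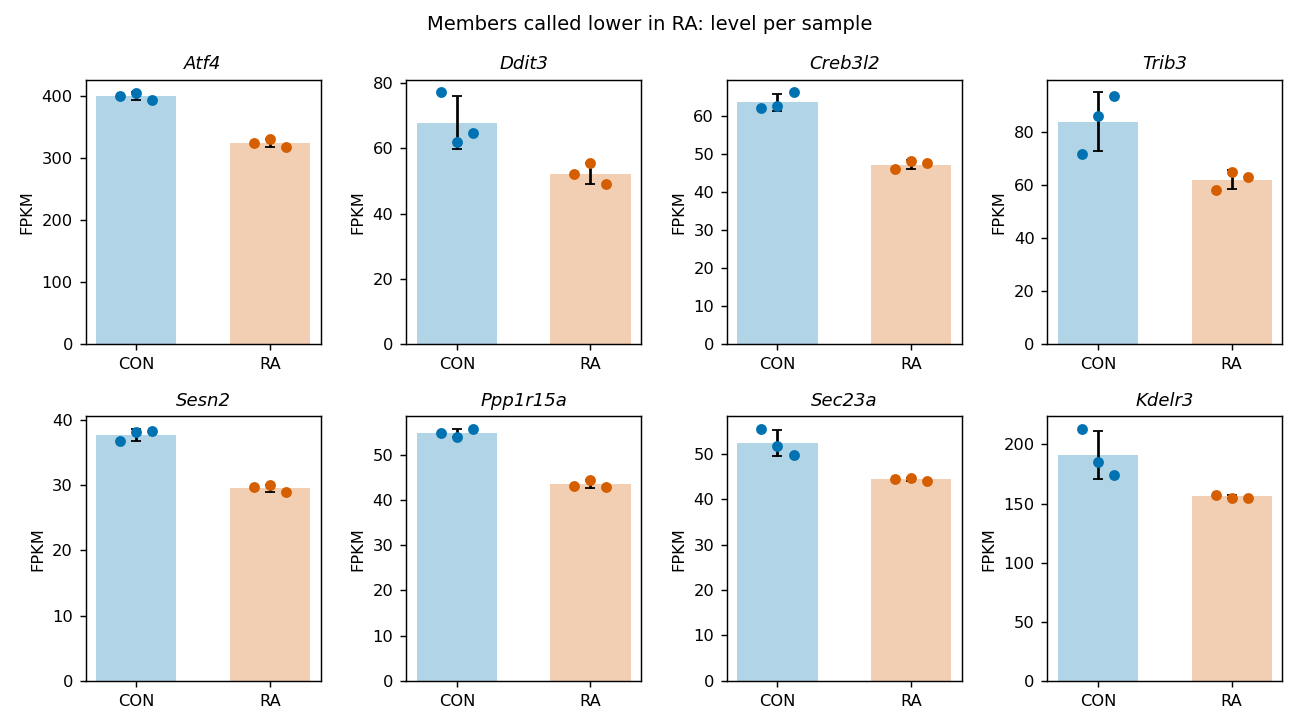
FPKM in each sample for the 8 members called lower in RA. Bars are group means from 0, error bars are SD (n = 3) and points are samples 1 to 3 from left to right, and in every panel the 3 RA points lie below the 3 CON points.

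Other ATF4 and integrated stress response genes were a list of 35 further symbols, of which 34 were tested. There, 7 were called lower and 0 higher, beside 4.5% and 5.31% of all genes, and the median log2 fold change was −0.11. Of the 34, 25 were below 0, 13 were lower without overlap and 13 had an unadjusted p below 0.05 by edgeR, beside 51.1%, 15.1% and 24% of all genes. A further 3 were higher without overlap, beside 16.8% of all genes. Inhbe, an activin subunit gene, stood at 5.19, 5.77 and 5.09 FPKM in CON and at 1.65, 2.31 and 2.37 FPKM in RA. It fell by 1.35 on the log2 scale (SE 0.154, edgeR adjusted p = 0.00109). Atf3, a stress-induced factor downstream of ATF4, stood at 2.59, 2.22 and 2.51 FPKM in CON and at 1.33, 1.24 and 1.5 FPKM in RA, and fell by 0.86 on the log2 scale (edgeR adjusted p = 0.00631). These are low levels beside the 400 ± 6.16 FPKM of Atf4 in CON (SD, n = 3). Aldh1l2, a mitochondrial folate enzyme, fell from 63.2 ± 1.99 to 45.2 ± 1.75 FPKM (SD, n = 3, edgeR adjusted p = 0.0016), and Slc7a11, the cystine transporter, from 4.68 ± 0.23 to 3.21 ± 0.225 FPKM (SD, n = 3, edgeR adjusted p = 0.00235). The list held 4 DEGs, Inhbe, Atf3, Fgf21 and Pycr1, of which Fgf21, a stress hormone gene, and Pycr1, a proline synthesis gene, were named after their values were seen. The 27 genes that did not pass the test, serine synthesis and aminoacyl-tRNA synthetase genes among them, had log2 fold changes between −0.3 and 0.33.

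None of the 3 sensors passed the test, although the groups did not overlap in any of them (15.1% of all genes were lower without overlap). Ern1 stood at 7.79, 8.31 and 8.11 FPKM in CON and at 7.29, 6.76 and 6.81 FPKM in RA. Ern1 had the lowest level per length of the 37 members. Its log2 fold change was −0.23 (95% interval −0.37 to −0.083, edgeR adjusted p = 0.0602). Atf6 averaged 33.4 (SD 0.586) in CON and 29.3 (SD 1.85) in RA on the FPKM scale, and its log2 fold change was −0.2 (edgeR adjusted p = 0.0972). Eif2ak3 averaged 16.3 ± 0.999 and 14.6 ± 0.4 FPKM (SD, n = 3), with a log2 fold change of −0.18 (edgeR adjusted p = 0.14). Without CON 1, Ern1 and Atf6 were called lower, at edgeR adjusted p = 0.0074 and 0.0221, and Eif2ak3 was not, at 0.103. Among 10 other genes of eIF2α control (kinases, eIF2B subunits and the constitutive phosphatase subunit), 0 were called by edgeR, 2 had an unadjusted p below 0.05, and the median log2 fold change was −0.051. Among the 5 tested of 7 other CREB3 family and site protease genes, 0 were called by edgeR, 0 had an unadjusted p below 0.05, and the median was −0.013. Of the IRE1-dependent decay substrates, mRNAs that IRE1 can cut, 4 were tested and 0 called by edgeR, 2 had an unadjusted p below 0.05, and their median was 0.097. Over all genes, 9.82% were called and 24% had an unadjusted p below 0.05, so the counts of these short lists lie near the background or are too few to set against it.

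The chaperones and folding enzymes included the most abundant members of the set, and none was called. Hspa5, whose window is printed above, stood at 632, 543 and 512 FPKM in CON and at 508, 483 and 485 FPKM in RA. The groups did not overlap, but CON 3 and RA 1 were nearly level while CON 1 was far above both, and the log2 fold change of −0.21 (95% interval −0.38 to −0.034) had an edgeR adjusted p of 0.141. Without CON 1 it was −0.12, with adjusted p = 0.0514. Hsp90b1 (GRP94) stood at 488, 376 and 348 FPKM in CON and at 379, 339 and 341 FPKM in RA, so that the groups overlapped, and its log2 fold change went from −0.21 to −0.054 without CON 1. Calr, calreticulin, was the most abundant member per length, with means of 1015 (SD 91) in CON and 966 (SD 26.6) in RA on the FPKM scale and a log2 fold change of −0.083 (95% interval −0.23 to 0.07). Pdia4 and Pdia6, disulfide isomerases, gave the tightest values of the branch, with log2 fold changes of −0.041 (95% interval −0.15 to 0.071) and −0.025 (−0.14 to 0.091).

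Over the 14 chaperones and folding enzymes, the median log2 fold change was −0.078 and the values ran from −0.21 to 0.031. By edgeR, 0 were called and 1 (Hspa5) had an unadjusted p below 0.05, beside 9.82% and 24% of all genes, and DESeq2 called 0 as well. Among 14 genes, a count of 0 called is close to that background. By normalised CPM the groups overlapped in all but Hspa5 and Pdia4 (31.9% of all genes did not overlap in either direction), and by FPKM Pdia4 overlapped as well. Lectin and isomerase members such as Canx (−0.19) and Pdia3 (−0.11), the co-chaperones Dnajb9 (−0.082), Dnajb11 (−0.042) and Dnajc3 (−0.13), and Hyou1 (−0.049), Manf (−0.066), Sdf2l1 (−0.074) and Creld2 (0.031) did not pass the test, all values being log2 fold changes. The widest intervals were those of Dnajb9 (−0.41 to 0.25) and Sdf2l1 (−0.39 to 0.24), so changes of that size in either direction cannot be told from none. CON 1 was the highest CON sample in 10 of the 14 (71.4%, beside 41.9% of all genes), by 0.51 on the log2 scale in Dnajb9, 0.42 in Hsp90b1 and 0.3 in Canx over the other CON samples, while Sdf2l1 was 0.34 lower there. Without CON 1 the branch median was −0.031, and the log2 fold changes of Pdia3 (−0.021), Calr (−0.012), Canx (−0.078), Dnajc3 (−0.036), Manf (−0.026) and Pdia6 (−0.013) lay closer to 0, those of Sdf2l1 (−0.18) and Hyou1 (−0.093) farther from it, and those of Dnajb9 (0.11), Dnajb11 (0.018) and Creld2 (−0.024) on its other side.

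**Figure D4:**
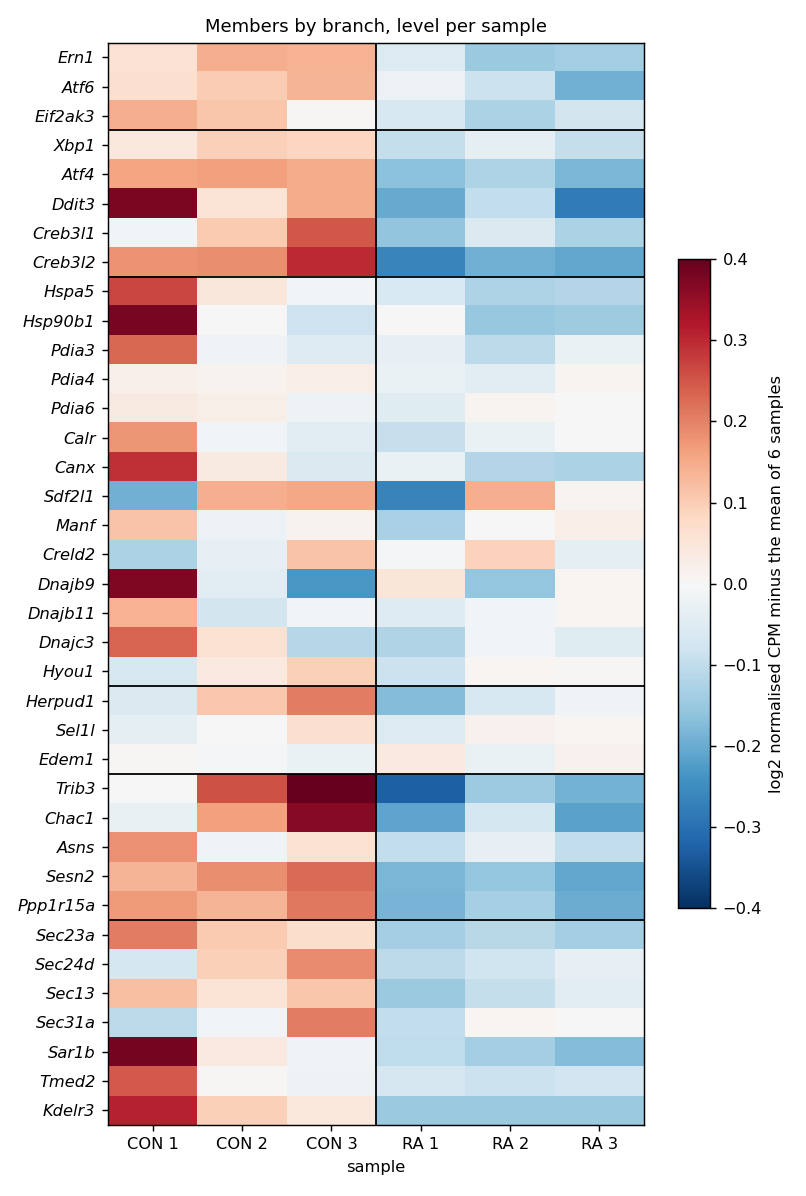
Level of each member in each sample as log2 normalised CPM minus the gene's mean over the 6 samples, on a colour scale of −0.4 to 0.4, with black lines between branches. Among the darkest red cells is CON 1 for Hsp90b1, Dnajb9 and Ddit3, while Atf4, Creb3l2, Sesn2 and Ppp1r15a are red in all 3 CON samples and blue in all 3 RA samples.

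The ER-associated degradation members did not pass the test either. Herpud1, a scaffold of the retrotranslocation complex whose window held ERSE-II and the amino acid response element, stood at 90.4, 102 and 107 FPKM in CON and at 84.5, 90.1 and 93.4 FPKM in RA. CON 1 lay inside the RA range, and the log2 fold change was −0.17 (95% interval −0.36 to 0.014, edgeR adjusted p = 0.243, or 0.0144 without CON 1). Sel1l and Edem1, which serve the ubiquitin ligase complex and glycan trimming, were close to level, with log2 fold changes of −0.021 (95% interval −0.15 to 0.11) and 0.014 (−0.11 to 0.14). Among 17 other ER-associated degradation genes tested, edgeR called 0 and 2 had an unadjusted p below 0.05, beside 9.82% and 24% of all genes, and the median log2 fold change was −0.039. Among 24 other ER folding and glycan quality control genes tested, 4 were called lower and 0 higher, beside 4.5% and 5.31% of all genes, with a median of −0.1. They were Serp1, a translocon-associated protein gene (log2 fold change −0.43, edgeR adjusted p = 0.00491), the prolyl isomerases Fkbp14 (log2 fold change −0.54, edgeR adjusted p = 0.00507) and Fkbp7 (−0.46, 0.00803), and Selenos, an ER membrane selenoprotein gene (−0.4, 0.00688). The highest value of that list, in Mogs, rested on 1 sample: RA 2 stood at 3.01 FPKM and the other 5 samples between 0.148 and 0.271 FPKM. Mogs was named after its values were seen.

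The COPII and early secretory branch had 2 of 7 tested members called lower, all 7 below 0 and 5 lower without overlap, beside 4.5%, 51.1% and 15.1% of all genes. The 2 calls went to 0 in each of the 4 fits without CON 2 or without 1 of the RA samples. Sec23a, an inner coat subunit of COPII vesicles and a known target of BBF2H7, stood at 55.4, 51.7 and 49.7 FPKM in CON and at 44.3, 44.6 and 43.9 FPKM in RA. The RA samples were nearly identical, and the CON samples were all higher. Sec23a fell by 16% (log2 fold change −0.25, SE 0.0584, edgeR adjusted p = 0.0298). Without CON 2 or any 1 RA sample its edgeR adjusted p lay between 0.0961 and 0.144, above the threshold, at log2 fold changes of −0.26 to −0.25. Kdelr3, a receptor that returns escaped chaperones from the Golgi to the ER, stood at 213, 185 and 174 FPKM in CON and at 157, 155 and 155 FPKM in RA. It showed the same tight RA group and a high CON 1. Kdelr3 fell by 18.9% (log2 fold change −0.3, SE 0.076, edgeR adjusted p = 0.0416), and by 0.22 on the log2 scale without CON 1 (adjusted p = 0.0066). Without CON 2 or any 1 RA sample it was not called either (edgeR adjusted p between 0.0961 and 0.158 at log2 fold changes of −0.33 to −0.3). Without CON 1, Sec13 and Sec24d were called as well.

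The remaining COPII members did not pass the test. Sec13, an outer coat subunit, stood at 127, 121 and 123 FPKM in CON and at 106, 109 and 113 FPKM in RA, and its log2 fold change was −0.18 (95% interval −0.32 to −0.051, edgeR adjusted p = 0.0925). Sar1b, the GTPase that starts coat assembly, stood at 52.4, 41.4 and 39 FPKM in CON and at 37.8, 36.5 and 35.6 FPKM in RA. Its log2 fold change of −0.28 had an interval of −0.53 to −0.042 and was −0.15 without CON 1, the sample that stood highest. The cargo adaptor Sec24d (−0.15, 95% interval −0.32 to 0.018), the p24 cargo receptor Tmed2 (−0.16, −0.33 to 0.014) and the outer coat subunit Sec31a (−0.066, −0.26 to 0.12) had log2 fold changes whose intervals include 0. Without CON 1 they were −0.22, −0.069 and −0.13.

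Of 27 other COPII, ER exit and ER-Golgi transport genes tested, 6 were called lower and 1 higher, beside 4.5% and 5.31% of all genes, and the median log2 fold change was −0.11. Sec16b, a scaffold of ER exit sites, stood at 11.6, 11.3 and 11 FPKM in CON and at 7.28, 7.9 and 7.13 FPKM in RA. It fell by 0.62 on the log2 scale (SE 0.0674, edgeR adjusted p = 0.000869) and was the list's DEG. Stx5, a Golgi SNARE gene (log2 fold change −0.32, edgeR adjusted p = 0.014), Mia2, a relative of Mia3 (−0.49, 0.0248), and Lman1, a glycoprotein cargo receptor gene (−0.35, 0.0323), were lower too. Tmed1, the one called higher and named after its values were seen, had a log2 fold change of 0.3 (edgeR adjusted p = 0.042). COPI coat genes, which serve the way back to the ER, had 1 of 9 called lower, beside 4.5% of all genes (Copz2, log2 fold change −0.32, edgeR adjusted p = 0.0131) and a median of −0.15. ER translocation and N-glycosylation genes had 1 of 22 called lower, beside 4.5% of all genes (Ssr1, log2 fold change −0.27, edgeR adjusted p = 0.0423) and a median of −0.14. Of those 22, 19 were below 0, 12 were lower without overlap and 8 had an unadjusted p below 0.05 by edgeR, beside 51.1%, 15.1% and 24% of all genes. The same counts were 8, 4 and 4 of the 9 COPI genes, 17, 10 and 12 of the 27 other transport genes, and 19, 11 and 10 of the 24 other folding and glycan quality control genes. In the other direction, 4 of the 27 other transport genes were higher in RA without overlap, beside 16.8% of all genes. In the COPI, translocation and folding lists, 0 genes were.

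The cargo of this machinery is given beside it. Of 15 secreted matrix genes tested, 12 were called lower and 1, Fn1, higher, beside 4.5% and 5.31% of all genes, and the median log2 fold change was −0.76 beside −0.0057 over all genes. Summed over these genes, the level ran from 105322 to 128833 CPM in CON and from 104303 to 110124 CPM in RA. The groups thus overlapped in the sum, although most of the genes were lower. The list was drawn up with earlier results of these data known, and it shares genes with the chondrocyte markers. Col27a1, a fibrillar collagen gene, fell from 69.4 ± 4.98 to 26 ± 1.21 FPKM (SD, n = 3, edgeR adjusted p = 2.38e-05). Matn3, a matrix adaptor protein gene, fell from 115 ± 12.7 to 36.9 ± 2.06 FPKM (SD, n = 3, edgeR adjusted p = 2.54e-05). Acan, the aggrecan gene, fell from 718 ± 71 to 254 ± 19.1 FPKM (SD, n = 3, edgeR adjusted p = 4.78e-05). Over the member branches, the medians ran from −0.35 in the ATF4 targets and −0.31 in the factors through −0.2 in the sensors and −0.18 in COPII transport to −0.078 in the chaperones and −0.021 in ER-associated degradation. The order at the low end was not stable. Without CON 1 the medians were −0.031 in the chaperones and −0.043 in ER-associated degradation. The ER-associated degradation median was 0.0065 without CON 3 and 0.00049 without RA 1. Differences between branches were not tested.

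**Figure D5:**
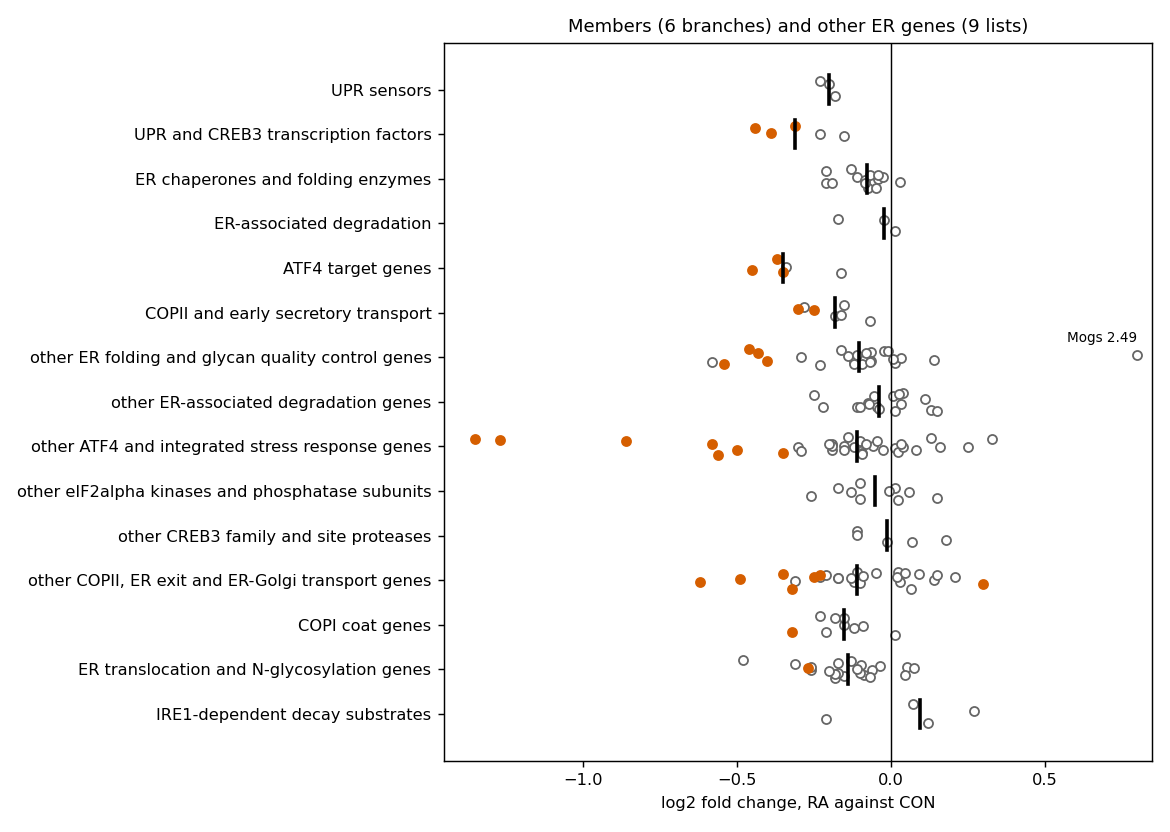
Log2 fold change of every tested gene in the 6 member branches (top) and in 9 lists of other ER and stress genes, with filled points for adjusted p below 0.05 and black bars at the list medians. Mogs, at 2.49 and not called, is drawn at the right edge, and the called points farthest left belong to the other ATF4 and integrated stress response genes.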

How the data were processed

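Poly(A) RNA of 3 CON and 3 RA samples was sequenced (NEBNext Ultra kit, which does not mark strand, so reads of overlapping antisense genes cannot be told apart). Per the submitters' processing notes, HISAT2, HTSeq 0.13.5 and Rnor_6.0 were used; annotation release and counting settings are not given in the sources used here. The authors deposited, per sample, whole-number counts per gene and FPKM values; no per-sample column was left unused. FPKM values are printed as deposited levels only.

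Differential expression was tested on the deposited counts with edgeR 4.0.16 in R 4.3.3 (TMM, filterByExpr with a minimum count of 10, quasi-likelihood test, Benjamini-Hochberg adjustment, threshold 0.05). Of 18923 genes, 473 had no count and 13438 were tested (biological coefficient of variation 0.122 over all genes). The script was tested on simulated data, where edgeR called 62% of genes changed 1.5-fold and 83% of those changed 2-fold. Of its calls there, 4.6% were false. Changes as small as those of the members were not simulated. CPM are TMM-normalised. Intervals are at the 95% level. DESeq2 1.42.0, limma 3.58.1 on log2(FPKM + pseudocount), other scalings and filters, a replicate block and leaving out each sample were alternatives.

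The members and lists were chosen with earlier results of these data known. All 38 members are accounted for; per-sample values are given for called members and for Hspa5, Ddit3, Atf4, Xbp1, Creb3l1, Creb3l2, Trib3, Chac1, Asns and Sec23a, and for others in short or where they bear on a branch. From each other list, at most the 4 called genes with the smallest p are named, apart from exceptions marked in the text. Promoter windows came from RefSeq (GRCr8), another build than the files'; no file coordinates were used. C-terminal retention signals of the proteins were not analysed here.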

Additional observations from a re-analysis of the deposited data

How the results depend on the processing

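Atf4, Creb3l2, Sesn2 and Ppp1r15a were called lower in all 6 fits without 1 sample and under all 9 other settings. Ddit3 kept its call in 2 of 6 such fits (without CON 1 or CON 2), Trib3 in 1 (without CON 1), and Sec23a and Kdelr3 in 2 each (without CON 1 or CON 3); limma on FPKM lost Ddit3 and Kdelr3. No called value changed sign.

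Leaving out 1 sample at a time, all genes called ran from 657 to 2242 (main 1319), members called lower from 4 to 16, sensors from 0 to 2, factors from 2 to 5, ER-associated degradation from 0 to 1, ATF4 targets from 2 to 4 and COPII genes from 0 to 4. The highest of each came without CON 1, apart from ties. With upper-quartile factors, 1 sensor (Ern1) was called. With limma on log2(FPKM + 0.01), log2(FPKM + 0.1) or log2(FPKM + 1), 1 COPII gene was called in each. By unadjusted p and a log2 fold change beyond 0.58, 0 members were called lower, hence 0 factors, 0 ATF4 targets and 0 COPII genes. The cause of these shifts was not tested. DESeq2 called 1615 genes and 9 members, adding Chac1.

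Replicate numbers did not pair the samples (correlations of same-numbered deviations 0.093, −0.012 and 0.012); with the replicate number as a block, 1595 genes were called, 9 members among them (Chac1 was added), and no count of calls moved by over 1.5 times.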
